A study of Patiria miniata with 6 samples.

Results

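Spliceosome proteins and splicing regulators of the bat star Patiria miniata, a sea star, were followed in hatched blastulae after knockdown of Pm-Tbr, a T-box transcription factor. The members were the loci for which every name in the authors' deposited table began with a symbol of an Sm or other snRNP protein, SF3A or SF3B subunit, Sf1, SR protein, Prp factor, LSm protein, U2af, hnRNP, Puf60, numbered Rbm protein, Ptbp or Cdc5l, without Pm-HnrpcL_1. The rule found 151 loci under 72 names and 130 gene models, of 27630 loci in that table and 80165 counted loci. None carried a U2af, Puf60 or Ptbp name.

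Zygotes had received a morpholino antisense oligonucleotide (MASO), a synthetic strand that binds an RNA, either a standard control or one against Pm-Tbr, each at 600 µM. How the Pm-Tbr MASO acts on its target RNA is not stated in the labels. Embryos grew at 15 °C to hatching, those that arrested or looked abnormal were removed, and each group gave 3 libraries of pooled embryos. The control MASO embryos were about 30 hours post fertilization and the Pm-Tbr MASO embryos about 36, so in each difference the effects of age and of knockdown cannot be told apart. In RNA from whole embryos, fewer cells of a type and less RNA per cell cannot be told apart either. Transcript levels of Pm-Tbr itself were not analysed here.

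Splicing removes introns from pre-mRNA. The U1 snRNP, a particle of small nuclear RNA and protein, binds the start of the intron, Sf1 and then the U2 snRNP bind the branch site, and the U4/U6.U5 tri-snRNP joins to form the catalytic machine. Sm proteins form a ring on most of these RNAs and an LSm ring sits on U6. SR proteins and hnRNPs bind exons and introns and steer which splice sites are used, and early embryos carry many of these proteins and transcripts from the egg.

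In Pm-Tbr MASO embryos 11 of the 151 splicing loci fell and none rose. Of these, 10 are described here: 2 loci each of Pm-Hnrpul1, Pm-HnrnpLiA and Pm-Lsm12L, and 1 each of Pm-Prpf40B, Pm-Snrp70, Pm-Sf3a1_1 and Pm-Sfrs2, with log2 fold changes from -1.01 to -1.44. The other 140 did not pass. The test was the quasi-likelihood F test of edgeR, with p-values adjusted by Benjamini-Hochberg over 44120 loci and a threshold of 0.05. The 11 are 7.28% of the members. Over all tested loci 0.922% were called lower and 1.36% higher, and over the 12546 loci with a gene name 1.73% and 1.55%. With the replicate number as a block 35 members were lower (23.2%) and 0 higher, where 4.26% of all tested loci were lower and 5.83% higher, and 6.89% and 6.42% of those with a gene name. All 11 were among the 35. Of the 35, 1 locus of Pm-Rbm34L entered the members only through the controls, as given below. The calls of the unblocked test rested on the full set of libraries. Leaving out any control library, or Pm-Tbr MASO replicate 1 or 2, left 0 members called, while 48 to 56 (31.8% to 37.1%) had an unadjusted p under 0.05 in those fits, as did 15.1% to 18.7% of all tested loci. Calls were lost over the whole set of loci there. Those fits called 0 to 209 of the 44120 tested loci in either direction, against 1008 with all libraries. With all libraries 56 members (37.1%) did, against 20% of all tested loci and 25.3% of those with a gene name. The edgeR exact test called 27 members lower with all libraries (3.06% of all tested loci were lower and 4.58% higher). With 1 left out it called 11 to 25. No share over all tested loci was taken for these counts, so they support nothing about the members. DESeq2 called 33 with all libraries (3.99% lower and 5.32% higher over all tested loci). Without Pm-Tbr MASO replicate 3 the quasi-likelihood test called 4 members, and 479 of all tested loci in either direction.

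Most members that did not pass leaned the same way. Of the 151 loci, 122 (80.8%) had a negative log2 fold change, against 49.4% of all tested loci and 53.6% of those with a gene name. The median of the 151 was -0.49, against 0.01 and -0.05. Within the pairs of libraries sharing replicate number 1, 2 or 3 the median was -0.60, -0.38 and -0.48. All 3 Pm-Tbr MASO values lay below all 3 control values at 59 members (39.1%, against 13.3% of all tested loci and 19.1% of those with a gene name) and above them at 3, where the background was 13.3% and 13.6%. The lean was not particular to splicing names. Of the cytosolic ribosomal protein and proteasome loci, 95.7% and 85.4% were negative, and 58.7% and 26.8% lay below the controls without overlap. Counts scaled to library size (CPM) summed over the 151 loci were 29536, 25995 and 33093 in control MASO replicates 1 to 3, and 18807, 19971 and 23625 in Pm-Tbr MASO replicates 1 to 3. Each Pm-Tbr MASO library thus had a lower sum than each control library. The loci of the egg and yolk names Pm-Ebr1, Pm-Vtgn1 and Pm-Vtgn2 moved the other way, with log2 fold changes from 1.40 to 1.95. All 9 lay above the controls without overlap, as did 13.3% of all tested loci. Adjusted p at these loci ranged from 0.0325 to 0.114 in the quasi-likelihood test, so not all of them passed. Their part in the result was not tested.

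**Figure D1:**
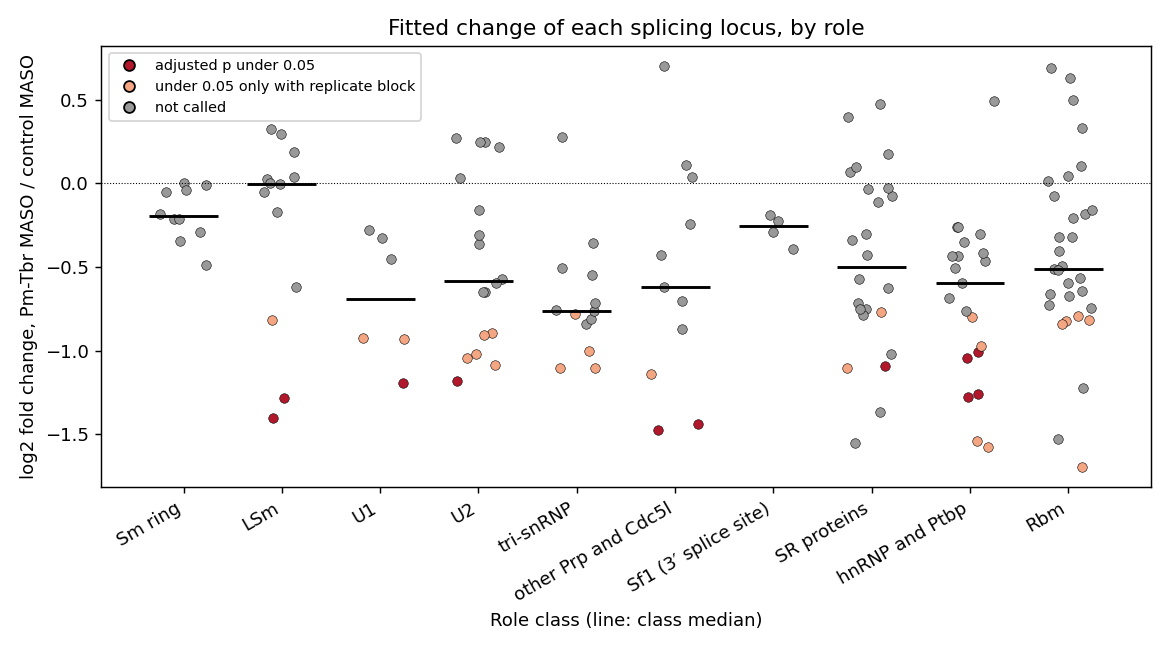
Fitted log2 fold change (vertical axis, Pm-Tbr MASO over control MASO) of each of the 151 splicing loci, by role class, with class medians as lines and colours for the call. The Sm ring and LSm classes centre near 0, at -0.20 and -0.01, and the tri-snRNP, U1, U2 and hnRNP classes between -0.76 and -0.58. Without control MASO replicate 3 the medians of the U1, tri-snRNP and Sm ring classes were -0.38, -0.51 and -0.09, and the LSm median was 0.08, or -0.22 without control MASO replicate 2.

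The core snRNP and Prp proteins and the regulators gave similar medians. The 71 core loci had a median of -0.45, with 6 called lower (8.45%), and the 76 SR, hnRNP and Rbm loci a median of -0.51, with 5 called lower (6.58%). With the block 19 (26.8%) and 16 (21.1%) were lower. The shares lower among all tested loci were 0.922% without and 4.26% with the block. Among loci with a gene name they were 1.73% and 6.89%. Core minus regulator medians were 0.08, -0.04 and -0.10 in pairs 1 to 3, so their order was not the same in each pair. Control MASO replicate 3 weighed on the core. Without it the core median was -0.24 and the regulator median -0.45. Some names in the core class act outside the spliceosome in other animals, such as Lsm14A in mRNA storage granules and Lsm16 (Edc3) in decapping. Without the loci of Lsm10, Lsm12L, Lsm14A and Lsm16 the core median was -0.44 over 64 loci.

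**Figure D2:**
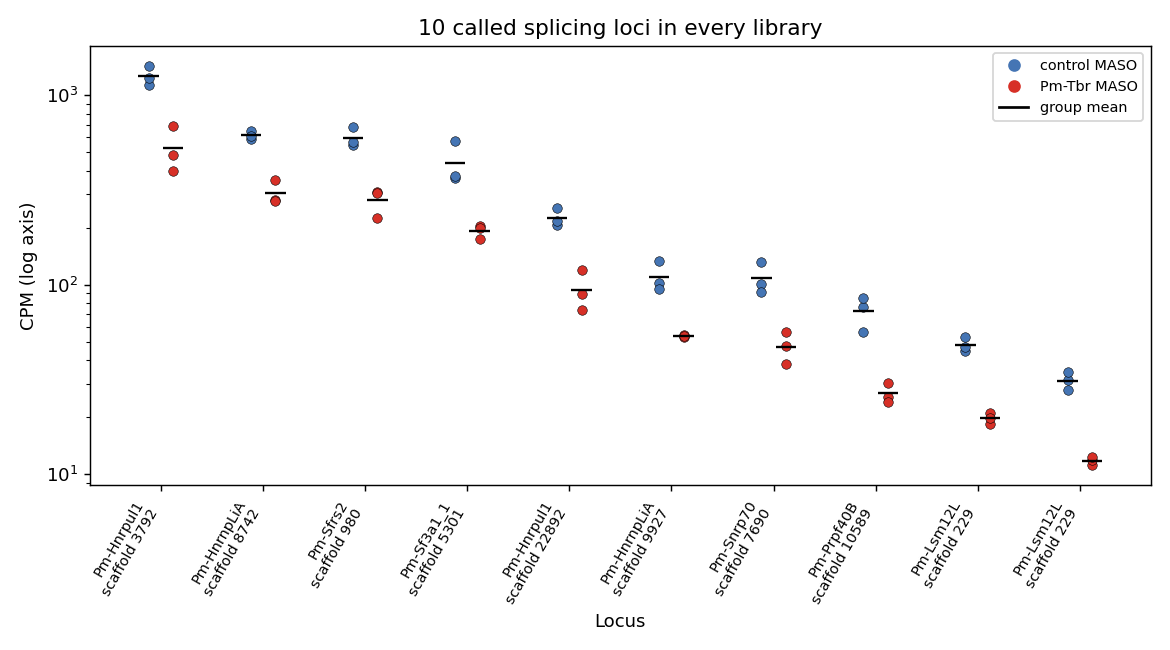
CPM (vertical log axis) in every library at 10 of the called loci, control MASO in blue and Pm-Tbr MASO in red, with bars at the group means. At each locus all 3 Pm-Tbr MASO points lie below all 3 control points.

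The U1 snRNP recognises the start of the intron. Its protein Snrp70 binds U1 RNA directly and contacts SR proteins, SnrpC stabilises pairing with the splice site, and Prpf40B and Prpf39 are relatives of yeast proteins that associate with it. Pm-Snrp70 on scaffold 7690 (2900 to 17693) had 131, 101 and 92.0 CPM in control replicates 1 to 3 and 56.2, 38.2 and 47.3 CPM in Pm-Tbr MASO replicates 1 to 3. The groups did not overlap, and the locus fell 2.29-fold (log2 fold change -1.20 ± 0.24 SE, adjusted p = 0.0487). A second locus of the name, on scaffold 1790, had means of 323 ± 58.2 and 169 ± 45.0 CPM (SD, n = 3) and did not pass without the block (adjusted p = 0.0984, with the block 0.0260). Pm-SnrpC had 164, 206 and 345 CPM in controls and 69.6, 129 and 178 CPM after Pm-Tbr MASO. Its groups overlapped, but each Pm-Tbr MASO library was below the control library of the same number, and it passed only with the block (adjusted p = 0.0297, without it 0.239). The 3 loci of Pm-SnrpA/U2Bl, named for the U1 protein that binds a U1 stem-loop and for its U2 relative, had log2 fold changes of -0.45, -0.33 and -0.28 and passed in neither fit.

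Pm-Prpf40B on scaffold 10589 (13913 to 33428) had 76.0, 56.6 and 85.2 CPM in controls and 25.6, 24.2 and 30.4 CPM after Pm-Tbr MASO, 2.72-fold lower (adjusted p = 0.0318). The groups did not overlap. The 4 Pm-Prpf39 loci lay between -0.70 and -0.24 and did not pass in either fit.

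The U2 snRNP carries the subcomplexes SF3A and SF3B, which hold U2 on the branch site. All 6 SF3A loci were below the controls without overlap, as were 13.3% of all tested loci and 19.1% of those with a gene name. The SF3A median was -0.85. Pm-Sf3a1_1 on scaffold 5301 (3993 to 23461) had 367, 376 and 573 CPM in controls and 203, 176 and 200.4 CPM after Pm-Tbr MASO, 2.27-fold lower (log2 fold change -1.18 ± 0.24, adjusted p = 0.0478). Both Pm-Sf3a3 loci, at -1.04 and -1.09, passed with the block (adjusted p = 0.0193 and 0.0182, without it 0.0945 and 0.0856). The 3 Pm-Sf3a2 loci, at -0.65, -0.65 and -0.59, did not pass. The unstranded one on scaffold 655 is of the same gene model as the stranded one there and is not separate evidence.

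SF3B subunits spread over a wider range. Pm-Sf3B3, whose human protein is a large scaffold of the subcomplex, had 247, 208 and 255 CPM in controls and 126, 104 and 149 CPM after Pm-Tbr MASO on scaffold 3944. Its other locus, on scaffold 1094, gave nearly the same log2 fold change (-0.89 ± 0.20 against -0.91 ± 0.22). Both passed only with the block, as did Pm-Sf3B5 (149 ± 13.6 against 73.5 ± 17.5 CPM, adjusted p = 0.0262 with the block and 0.0681 without). Pm-Sf3B2_1 and Pm-Sf3B4, RNA-contacting subunits, had positive values at all 5 loci, from 0.03 to 0.27, none of which passed. Each value was smaller than its SE (0.24 to 0.48). Within the pair of replicate number 3 all 5 were negative, from -0.79 to -0.23. Pm-Sf3B4 on scaffold 4633 had 62.9, 72.4 and 118 CPM in controls and 91.9, 114 and 99.1 CPM after Pm-Tbr MASO, inside the control range. Pm-Sf3B1, the subunit that clasps the branch site, had 380.4, 307 and 724 CPM against 288, 345 and 465 CPM on scaffold 6190. Its log2 fold change of -0.36 turned to 0.09 without control MASO replicate 3, and the SF3B median of -0.23 over 12 loci turned to 0.04. The difference between subunits was not tested.

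**Figure D3:**
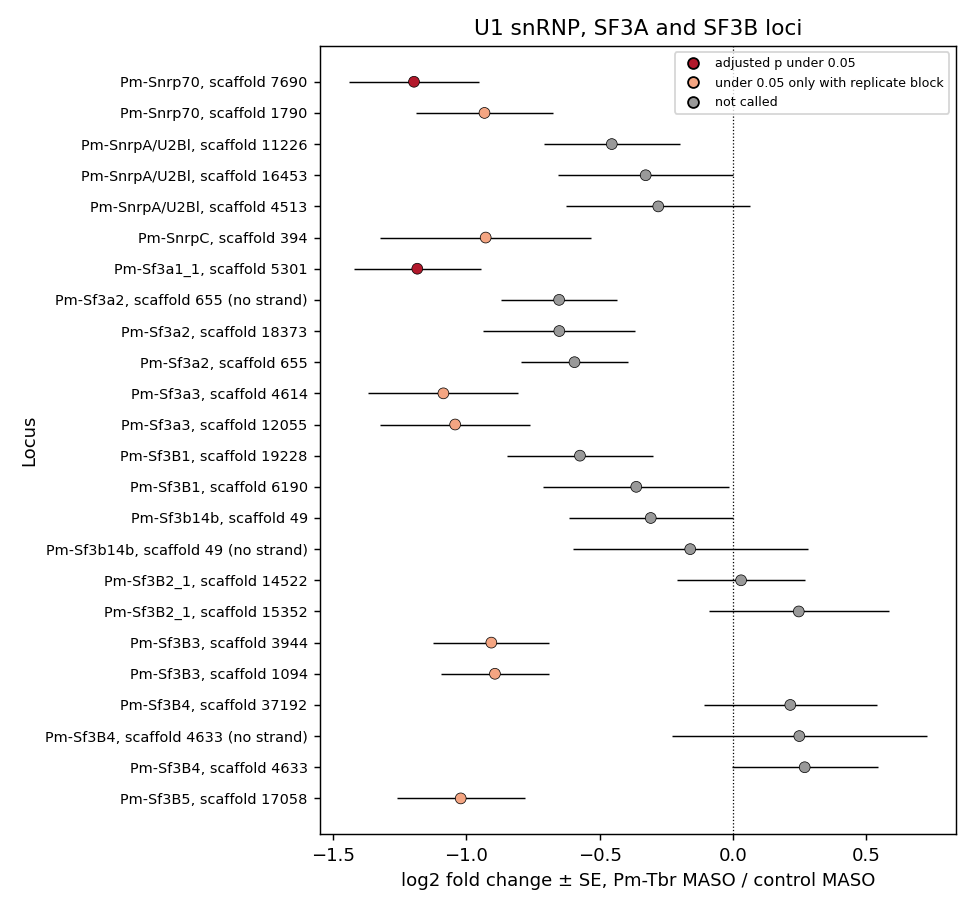
Log2 fold change with its standard error (horizontal axis) at the 24 loci of the U1 snRNP, SF3A and SF3B, coloured by call. All SF3A loci lie between -1.18 and -0.59, and Pm-Sf3B3 and Pm-Sf3B5 between -1.02 and -0.89. Pm-Sf3B2_1 and Pm-Sf3B4 lie to the right of 0 by less than their SE.

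None of the 13 tri-snRNP loci passed without the block, and 12 were negative, with a median of -0.76 that was -0.51 without control MASO replicate 3. Prpf8 is the large protein at the catalytic centre of the spliceosome. The Pm-Prpf8_1 locus with the longest span, on scaffold 2693, had 583, 525 and 829.7 CPM in controls and 301, 396 and 482 CPM after Pm-Tbr MASO. These did not overlap, but the log2 fold change of -0.72 ± 0.26 did not pass (adjusted p = 0.182, with the block 0.0702). The 6 loci of Pm-Prpf8 and Pm-Prpf8_1 ranged from -1.11 to -0.51, and 2 of them passed with the block. Prpf4, a U4/U6 protein, had unlike values at its loci. On scaffold 8896 the stranded locus had a value of -0.81 and an adjacent unstranded locus of the same gene model 0.28, where all 3 Pm-Tbr MASO values (43.6, 43.4 and 42.2 CPM) were above the controls (33.7, 38.96 and 33.9 CPM). Neither passed.

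Pm-Cdc5l, a component of the Prp19 complex that joins the spliceosome before catalysis, had the highest log2 fold change of all members. It had 177, 183 and 247 CPM in controls and 277, 247 and 465 CPM after Pm-Tbr MASO, and did not pass (0.70 ± 0.29, adjusted p = 0.226, with the block 0.0767). Pm-Prpf18, a second-step factor in yeast, had means of 8.21 ± 1.28 and 3.73 ± 1.27 CPM on scaffold 11815 and passed with the block (adjusted p = 0.0332).

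None of the 10 loci of Pm-SnrpB, Pm-SnrpD1, Pm-SnrpE, Pm-SnrpF and Pm-SnrpG passed in either fit, and all had overlapping groups. Pm-SnrpD1 had 261, 249 and 333 CPM in controls and 266, 279 and 290.4 CPM after Pm-Tbr MASO, with a log2 fold change of -0.01 ± 0.20. The 6 loci of the U6 ring proteins Pm-Lsm3, Pm-Lsm6 and Pm-Lsm7 lay between -0.17 and 0.32 and also did not pass. A missed threshold does not show that these transcripts were equal, and an SE of 0.20 leaves room for a modest change at Pm-SnrpD1. In the LSm class the falls were at Pm-Lsm12L, an LSm-domain protein that is not part of the U6 ring. Its stranded locus on scaffold 229 (4673 to 13106) had 44.6, 46.9 and 52.9 CPM in controls and 21.1, 18.5 and 19.7 CPM after Pm-Tbr MASO (log2 fold change -1.28 ± 0.21, adjusted p = 0.0304). The other called locus (2732 to 4352, log2 fold change -1.40) belongs to the same gene model and is not separate evidence. Pm-Lsm14A had values of -0.82 and -0.62, and the first passed with the block (adjusted p = 0.0480, without it 0.0888).

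Sf1, the protein that first binds the branch site, had 4 loci between -0.39 and -0.19 that passed in neither fit. On scaffold 5638 it had 72.3, 92.7 and 172 CPM in controls and 62.1, 71.2 and 142 CPM after Pm-Tbr MASO, so the spread between replicate numbers exceeded that between groups. Without control MASO replicate 3 the value of -0.29 became 0.16.

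Of the 24 loci with SR protein names, 1 fell, 2 more passed with the block and 21 passed in neither fit. The share lower was 4.17%, against 0.922% of all tested loci and 1.73% of those with a gene name. With the block it was 12.5%, against 4.26% and 6.89%. Sfrs2 (SC35, now SRSF2) is a classical SR protein that promotes exon inclusion. Pm-Sfrs2 on scaffold 980 (5216 to 25220) had 677, 546 and 569 CPM in controls and 308, 226 and 305 CPM after Pm-Tbr MASO. It fell 2.14-fold (log2 fold change -1.09 ± 0.22, adjusted p = 0.0450) with no overlap between groups. Of the 24 loci 19 were negative, and the class median of -0.50 was -0.29 without control MASO replicate 3. The 3 Pm-Sfrs1L loci had values of -1.37, -1.02 and -0.57, the 2 Pm-Sfrs3 loci -0.72 and -0.63, and the 3 Pm-Sfrs7 loci -0.79, -0.77 and -0.75. Of these 8, an unstranded Pm-Sfrs7 locus passed with the block (adjusted p = 0.0486, without it 0.641) and the others in neither fit. The positive values were at other names. Pm-Sfrs6, at its locus with the highest CPM, had 805, 1031 and 1442 CPM in controls and 1104, 1382 and 1213 CPM after Pm-Tbr MASO (0.17 ± 0.25), and a second stranded locus gave 0.07. An unstranded locus inside the first (21770 to 23659 on scaffold 2222) had 3.38, 7.56 and 5.05 CPM against 2.10, 1.40 and 1.96 CPM, without overlap, and passed in neither fit (-1.55 ± 0.40, adjusted p = 0.0869, with the block 0.0543). Only 1 Pm-Tbr MASO library exceeded 2 CPM there. The locus thus entered the members through the controls, and its low value and lack of overlap support nothing. Pm-Sfrs10, the name of the Tra2-beta homologue in vertebrates, had values of 0.40 and 0.47, with all Pm-Tbr MASO values above all controls at both loci, yet neither passed (adjusted p = 0.336 and 0.299, with the block 0.254 and 0.168). Pm-Sfrs7L loci ranged from -1.11 to 0.10 at 6 loci, of which the one at 2176 to 10465 on scaffold 3182 (483 ± 164 against 224 ± 36.7 CPM) passed with the block. The unstranded one on that scaffold, at -0.75, did not.

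The hnRNP class held the most calls, with 4 of 21 loci lower (19%) and 8 with the block (38.1%), against 0.922% and 4.26% of all tested loci. The 4 were 2 loci each of Pm-Hnrpul1 and Pm-HnrnpLiA. Without the block the share was near those of the other Prp and Cdc5l (2 of 11, 18.2%), U1 (1 of 6, 16.7%) and LSm (2 of 13, 15.4%) classes. The 2 LSm loci are of 1 gene model, and each of these shares rests on few genes. Hnrpul1 (HNRNPUL1) is an hnRNP U-like nuclear RNA-binding protein. Pm-Hnrpul1 on scaffold 3792 (19347 to 37606) had 1431, 1141 and 1237 CPM in controls and 401, 484 and 689 CPM after Pm-Tbr MASO, 2.42-fold lower (log2 fold change -1.28 ± 0.25, adjusted p = 0.0450). Its locus on scaffold 22892 (1 to 7363) fell by nearly the same amount (-1.26 ± 0.24, adjusted p = 0.0414). Pm-HnrnpLiA had 592, 646 and 607 CPM in controls and 281, 278 and 358 CPM after Pm-Tbr MASO on scaffold 8742 (3907 to 16525), 2.01-fold lower (adjusted p = 0.0449). The locus on scaffold 9927 (36547 to 51024) also fell, by 1.04 on the log2 scale (adjusted p = 0.0491), and the one on scaffold 13810, at -0.97, passed with the block only (adjusted p = 0.0239, without it 0.0828).

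The largest differences among the hnRNPs passed only when replicate numbers were paired. Hnrnpk binds C-rich RNA in vertebrates, and Pm-Hnrnpk had 236, 419.9 and 426 CPM in controls and 78.7, 170.2 and 113 CPM after Pm-Tbr MASO. Its log2 fold change of -1.58 ± 0.35 had an adjusted p of 0.0592, and with the block 0.00812, the smallest among the members in that fit. Pm-Hnrnpm had 26.5, 28.1 and 31.3 CPM against 5.77, 9.09 and 14.6 CPM (-1.54 ± 0.35, adjusted p = 0.0609, with the block 0.0141). Neither locus had overlapping groups. Loci of the hnRNP A names, whose vertebrate relatives often repress exons, gave smaller values. The 7 Pm-Hnrpa loci ranged from -0.80 to 0.49 and 1 passed with the block, and the 3 Pm-Hnrpa2B1L loci, from -0.69 to -0.26, passed in neither fit. Pm-Hnrpr had 3037, 2192 and 2913 CPM in controls and 1425, 1646 and 1726 CPM after Pm-Tbr MASO (-0.76 ± 0.21, adjusted p = 0.0990, with the block 0.0788).

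No Rbm locus passed without the block, and 5 of 31 were lower with it (16.1%). In that fit 4.26% of all tested loci and 6.89% of those with a gene name were lower. The 5 Rbm loci were 2 each of Pm-Rbm25, a U1-associated splicing regulator in human cells, and Pm-Rbm14, and 1 of Pm-Rbm34L. The Pm-Rbm34L locus entered the members only through the controls, as given below. Pm-Rbm25 had 74.5, 82.4 and 72.2 CPM in controls and 41.2, 39.5 and 49.1 CPM after Pm-Tbr MASO on scaffold 18090 (-0.82 ± 0.20, adjusted p = 0.0758, with the block 0.0429), and its locus on scaffold 7295 gave -0.79. Pm-Rbm8A, the exon junction protein Y14, had 322, 230.2 and 326 CPM against 193, 161 and 170.0 CPM and passed in neither fit (adjusted p = 0.111 and 0.0563). Pm-Rbm22, which contacts U6 RNA in the active site, had a value of 0.10 at its main locus. Rbm35A is the older name of ESRP1, an epithelial splicing regulator of vertebrates. Pm-Rbm35A had 604, 374 and 437 CPM in controls and 689, 576 and 928 CPM after Pm-Tbr MASO on scaffold 2690. Its loci had log2 fold changes of 0.63 and 0.69, overlapped between groups and passed in neither fit (adjusted p = 0.236 and 0.216).

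Rbm names also cover nucleolar proteins. The relatives of Rbm13 (Mak16), Rbm19, Rbm28 and Rbm34 act in ribosome biogenesis in yeast or vertebrates, and the 9 loci of these names were all negative, with a median of -0.64. The lowest value of any member was at an unstranded locus of Pm-Rbm34L, with 6.48, 3.89 and 4.97 CPM in controls and 1.46, 1.91 and 1.34 CPM after Pm-Tbr MASO (-1.70 ± 0.36, adjusted p = 0.0533, with the block 0.0272). It was below 2 CPM in all 3 Pm-Tbr MASO libraries and so entered the members only through the controls, as did 1 more unstranded locus of that gene model. The fall of either locus, and the call of the first with the block, therefore support nothing. Both are among the 9 above, and their negative values add nothing to that count. The stranded locus of the gene model gave -0.64. Without these names the regulator median was -0.50 over 67 loci.

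Loci that share a name mostly gave like values. Of the 48 names with more than 1 locus, 35 had only negative and 7 only positive values, and in 34 the values spanned less than 0.25 on the log2 scale. Reads without a unique alignment (43.4% to 45.2% of a file) were counted at no locus. Near-identical copies may thus lose the reads they have in common. Loci that share a name may be copies of 1 gene and are not treated as independent. With the loci of a name summed before the fit, 7 of 72 names fell and 0 rose, where 0.894% of the 38132 entries of that fit fell. Pm-Snrp70 was then no longer called (log2 fold change -1.01, adjusted p = 0.0552).

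Splicing genes outside the naming rule were followed as a further list of 86 loci, of which 2 fell (2.33%, against 0.922% of all tested loci and 1.73% of those with a gene name), 1 rose and 83 did not pass. Their median was -0.42 and 80.2% were negative, against 49.4% of all tested loci and 53.6% of those with a gene name. Pm-Plrg1, of the Prp19 complex, had 92.9, 79.1 and 119 CPM in controls and 47.6, 34.7 and 44.8 CPM after Pm-Tbr MASO (-1.19 ± 0.24, adjusted p = 0.0487). Pm-Usp39, a tri-snRNP factor, fell at 1 locus (-1.31 ± 0.25, adjusted p = 0.0416), while its other locus, at -1.25, passed only with the block. The rise was at 1 of the 5 Pm-Dhx38 loci, named for a splicing helicase, with 4.45, 1.40 and 0.993 CPM against 42.05, 24.4 and 12.4 CPM. Only 1 control library exceeded 2 CPM there, so the locus entered the list through the group where it was high and had to differ. The other 4 loci of that name lay between -0.83 and -0.65 and did not pass. With the block 8 of the 86 were lower (9.30%, against 6.89% of loci with a gene name) and 1 higher.

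Lists of other housekeeping genes are given beside these. The 92 cytosolic ribosomal protein loci had a median of -0.57 with 0 called. Of them 45 (48.9%) had an unadjusted p under 0.05, against 20% of all tested loci and 25.3% of those with a gene name. With the block 11 were lower (12%, against 4.26% and 6.89%). The 41 proteasome loci had a median of -0.27 with 3 called lower (7.32%, against 0.922% and 1.73%). With the block 9 of these were lower (22%, against 4.26% and 6.89%). No test compared these lists with each other.

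**Figure D4:**
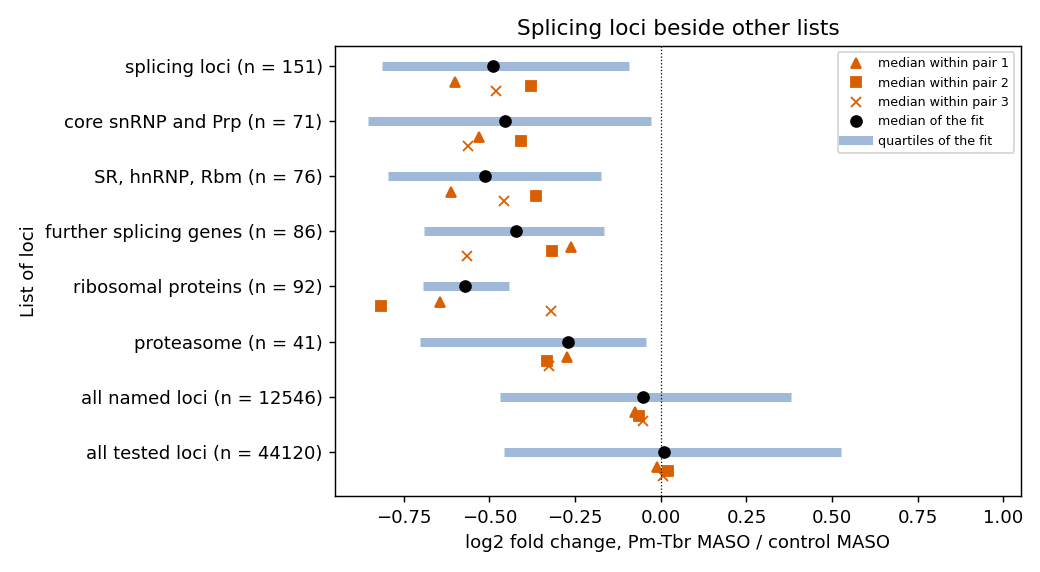
Median (black), quartiles (bar) and within-pair medians (orange) of the log2 fold change for the splicing loci, their subdivisions, other lists and all loci. The splicing medians of -0.49, -0.45 and -0.51 lie between those of ribosomal proteins at -0.57 and proteasome subunits at -0.27, and all tested loci centre at 0.01.

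Replicate number was a second source of variation at these loci. Control MASO replicate 3 was the highest control at 86 of 151 members (57.0%, against 33.1% of all tested loci), and Pm-Tbr MASO replicate 3 the highest of its group at 89 (58.9%, against 33.3%). The tri-snRNP gene Pm-Prpf31, mutated forms of which cause retinal degeneration in humans, had 34.1, 50.8 and 151 CPM in controls and 20.5, 25.9 and 63.3 CPM after Pm-Tbr MASO on scaffold 1740. Each Pm-Tbr MASO library was below its control partner although the groups overlapped, and the locus passed only with the block (adjusted p = 0.0266, without it 0.363). Its locus on scaffold 13982 showed the same layout (adjusted p = 0.0453 and 0.497). An unstranded locus of Pm-SnrpB ran the other way, with 68.7, 73.2 and 5.92 CPM in controls and 52.4, 86.7 and 3.41 CPM after Pm-Tbr MASO. Replicate 3 was low in both groups there, while the neighbouring stranded locus of the same gene model had 246 and 149.7 CPM in those 2 libraries.

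**Figure D5:**
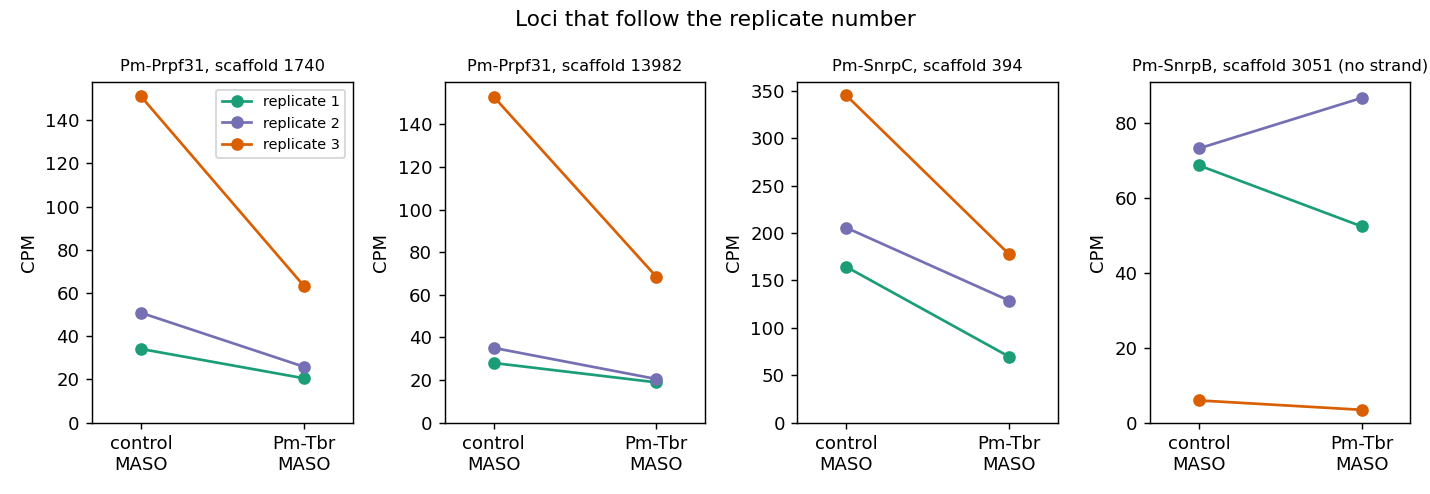
CPM (vertical axis) at 4 splicing loci, with lines joining control and Pm-Tbr MASO libraries of the same replicate number. Replicate 3 is highest in both groups at Pm-Prpf31 and Pm-SnrpC and near 0 in both at the unstranded Pm-SnrpB locus.

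The authors' deposited table called 21 of the 151 members lower and 0 higher at a false discovery rate under 0.05 (13.9%, against 3.77% lower of all its loci). All 11 loci called here were among these 21, and all 21 were among the 35 called with the block.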

How the data were processed

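For each of 6 libraries (3 control MASO, 3 Pm-Tbr MASO) the authors deposited unnormalized read counts at 80165 loci. Counts assigned to loci ranged from 17795136 to 28167566 per library. Summary lines (49.0% to 50.6% of a file) were left out, most of them reads without a unique alignment (43.4% to 45.2% of a file). The submitters' processing notes list CASAVA 1.8, TopHat2 2.0.12, SAMtools, Cufflinks 2.2.1, edgeR 3.10.5 and HTSeq 0.6.1p1. The genome build, and whether counting used strand, are not given in the sources used. Names and positions come from the authors' deposited table, which also holds log2 values (fold change and CPM), a score (the F statistic) and p-values. That table holds the loci above 2 CPM in at least 3 libraries, so splicing loci below that level have no name here and were not analysed.

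All 151 members were among the 44120 loci that filterByExpr kept (edgeR 4.0.16, R 4.3.3). Counts were scaled by TMM and fitted with group as the only term. The SE is the absolute log2 fold change over the square root of F. CPM are not corrected for length and are compared only within a locus. Libraries with the same replicate number moved together around their group means (correlations over loci of 0.53, 0.22 and 0.56, and from -0.47 to -0.05 where numbers differed). This pairing is read from the counts, since no label gives a shared batch or spawning, and the number was tried as a block. Because separate spawnings are not stated, p-values describe the spread of these libraries, which may be technical. No library repeated another (chi-square over its degrees of freedom was at least 38.3 within groups).

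The members, role classes and lists were chosen with earlier results of these data known. The rule named the 20 members with the smallest block p among those called in either fit and, in each role class, the locus with the highest CPM and that with the smallest p; other members named were chosen after their values were seen. Alternatives were DESeq2 1.42.0, the exact test of edgeR, RLE and upper-quartile scaling, library totals, 2 other filters, a threshold of 0.10, summed names and each library left out. The fit was tested on simulated counts. The values of 1 called locus are not reported here.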

Additional observations from a re-analysis of the deposited data

How the results depend on the processing

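The count of 11 splicing loci called, all lower, was 10 to 15 with RLE or upper-quartile factors, library totals only, no low-count filter or a CPM minimum of 2 in 3 libraries. In either direction the scalings called 1002 to 1009 of 44120 tested loci. Without the filter 12 members and 1150 of 75344 loci were called, and with the CPM minimum 15 members and 1449 of 27630. The member count was 35 with the replicate block, 27 with the edgeR exact test, 33 with DESeq2, 29 at an adjusted p of 0.10 and 7 with loci summed per name. None of these called a member higher. The block, exact test and DESeq2 called 4455, 3374 and 4110 of the 44120 loci in either direction. With 1 library left out the member count ranged from 0 to 4 in the quasi-likelihood test, where 0 to 479 of the 44120 tested loci were called in either direction. In the edgeR exact test, added after seeing the data, it then ranged from 11 to 25, with 17 without control MASO replicate 1. No share over all tested loci was taken for these exact-test counts or for the threshold of 0.10, so they support nothing about the members. With a library left out the core median ranged from -0.60 to -0.24, the regulator median from -0.62 to -0.45 and the median of all splicing loci from -0.61 to -0.37. The median of all tested loci stayed between -0.02 and 0.03 under each scaling, filter and left-out library. The block added calls and removed none. Some named loci that passed in neither fit changed sign. Pm-SnrpD1 was 0.018 with the CPM minimum and ranged from -0.092 to 0.128 with a library left out. Over the same fits the stranded Pm-Sfrs6 locus on scaffold 2222 ranged from -0.0038 to 0.43, Pm-Sf1 on scaffold 5638 from -0.76 to 0.16 and Pm-Sf3B1 on scaffold 6190 from -0.59 to 0.091. The cause was not tested.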
